A study of Mus musculus with 12 samples.

Results

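The heat-shock chaperones described here are 10 genes of the cytosol and the mitochondrion: Hspa1a, Hspa1b, Hspa8, Dnajb1, Dnaja1, Hsph1, Hsp90aa1, Hsp90ab1, Hspd1 and Hspe1. They were chosen by name, with earlier results of these data known, as 10 of the 23479 gene symbols in the deposited counts. All 10 had a row in each of the 12 libraries. RNA was sequenced from CD4+ T cells of mouse spleen, either at once (0 h) or after culture for 24 h with anti-CD3 at 5 µg/ml, an antibody coated on the plate that engages the T cell receptor complex. Wild-type cells (WT) came from C57BL/6J mice, and knockout cells (KO) came from Sirt2-/- mice, whose strain background the labels give as C57BL/6. SIRT2 is an NAD-dependent protein deacetylase, and the labels name no Cre or promoter that would limit its loss to T cells. Each of the 4 groups, named by genotype and time, held 3 libraries, and the age of the mice is not given in the sources used here. The comparisons address how strongly chaperone RNA was present in cells taken straight from the spleen, whether that level differed between genotypes, and how it changed with 24 h of stimulation. No library of cells that had not been through isolation was analysed here, so the 0 h levels have no unhandled reference.

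Chaperones of the HSP70 family bind unfolded stretches of other proteins in a cycle driven by ATP. J-proteins such as DNAJB1 and DNAJA1 bring clients and start ATP hydrolysis, and HSP110 (Hsph1) exchanges the nucleotide. HSP90 acts later, on kinases and steroid receptors among others, and the HSP60 barrel (Hspd1) with its HSP10 lid (Hspe1) folds proteins in the mitochondrial matrix. Under heat or other damage to proteins, heat shock factor 1 (HSF1) binds repeats of the unit GAA in alternating orientation in the promoters of these genes. Hspa1a and Hspa1b are the strongly inducible HSP70 genes, Hspa8 is the constitutive one, Hsp90aa1 is the more inducible and Hsp90ab1 the more constitutive HSP90 gene. Dissociation and sorting of tissue are known to induce Hspa1a, Hspa1b, Dnajb1 and the immediate-early genes in many cell types.

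Promoters are shown because HSF1 units are what the inducible members are known to share. The RefSeq promoter table of build GRCm38.p6 held 7 of the 10 genes, in 12 windows of 300 bases, from 250 before to 50 after an annotated start; Hspa8, Hsp90aa1 and Hsp90ab1 were not matched. The letters GAANNTTC and TTCNNGAA, each of which reads the same on both strands, were searched. Of the 12 windows of the members, 7 held at least 1 match, against 15.1% of all 32851 windows in the table. A run of 3 alternating units, in which GAANNTTC or TTCNNGAA goes on after 2 further bases into another GAA or TTC, stood in 4 of the 12 windows, of Hsph1, Hspd1 and Hspe1, against 0.603% of all windows. These windows are not independent, since Hspa1a with Hspa1b, and Hspd1 with Hspe1, hold the same letters. Windows 1 and 2 of Hsph1 also overlap each other, as do windows 2 and 3 of Dnaja1. The 4 windows with a run thus hold only the Hsph1 run and the run that Hspd1 and Hspe1 share. The 250 bases before the start are printed 5′ to 3′ on the gene's strand for 4 members, with matches in capitals.
Hspa1a, chr17:34972157-34972406, minus strand: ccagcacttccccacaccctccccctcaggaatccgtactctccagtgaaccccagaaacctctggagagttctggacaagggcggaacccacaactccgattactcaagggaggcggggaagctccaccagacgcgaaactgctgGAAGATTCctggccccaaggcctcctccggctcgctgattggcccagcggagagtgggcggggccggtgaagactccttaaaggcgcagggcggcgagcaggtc
Hspe1, chr1:55087898-55088147, plus strand: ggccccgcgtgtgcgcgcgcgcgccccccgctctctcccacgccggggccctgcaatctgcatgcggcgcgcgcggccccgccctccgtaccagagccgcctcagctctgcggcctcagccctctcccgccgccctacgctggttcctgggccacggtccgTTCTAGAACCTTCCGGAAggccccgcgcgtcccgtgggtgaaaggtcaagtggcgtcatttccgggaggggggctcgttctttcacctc
Hsph1, chr5:149636316-149636565, minus strand: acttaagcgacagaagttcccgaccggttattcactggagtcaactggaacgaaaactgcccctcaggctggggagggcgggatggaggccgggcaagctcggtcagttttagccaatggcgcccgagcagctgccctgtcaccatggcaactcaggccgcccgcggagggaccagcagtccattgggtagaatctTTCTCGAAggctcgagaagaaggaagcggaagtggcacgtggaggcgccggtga
Dnaja1, chr4:40722218-40722467, plus strand: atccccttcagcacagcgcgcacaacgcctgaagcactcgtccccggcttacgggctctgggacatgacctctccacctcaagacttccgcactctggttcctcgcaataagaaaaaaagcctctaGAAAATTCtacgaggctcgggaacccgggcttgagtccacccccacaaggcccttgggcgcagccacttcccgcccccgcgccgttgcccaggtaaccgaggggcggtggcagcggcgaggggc
In Hspa1a the match began at position -104 from the start, and the Hspa1b promoter held the same letters at the same place, with 3 differences from Hspa1a over the 250 bases. In Hspe1, 3 matches overlapped from position -89 on. Hspd1, its neighbour on the opposite strand, held the same run from position -144 of its second window. In Hsph1 the printed match lay at -54 and a run of 3 units followed at 16 and 21 bases past the start. Dnaja1 held 1 match at -124, and neither of the Dnajb1 windows held one. Matches describe letters in these windows and were not tested for binding.

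The libraries held 3.63 to 10.0 megareads in genes, and 10981 genes, all 10 chaperones among them, passed the filter on low counts. As a check of the labels, Sirt2 ranged from 62.3 to 85.4 CPM (reads per megaread in genes after TMM scaling) over the 6 WT libraries and from 9.04 to 19.7 CPM over the 6 KO libraries, so every KO library lay below every WT library. The 8 CD4 T cell markers summed to between 5849 and 6936 CPM at 0 h and between 2778 and 3176 CPM at 24 h, while the 6 erythroid and platelet markers reached at most 0.402 CPM. Nothing in the labels tells whether replicates are separate mice, so the spread that the p-values use may be technical. In such bulk RNA, fewer cells of a kind and less RNA per cell cannot be told apart.

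Cells taken straight from the spleen gave few counted reads for the inducible HSP70 genes beside the constitutive chaperones. Levels were divided by the length of all annotated exons of the gene (GENCODE vM21) so that genes could be compared. That length joins the exons of every transcript: 7266 bases for Hsph1, 8629 for Dnaja1, 4301 for Hspa8 and 1474 for Hspe1. Their longest coding transcripts held 3802, 5622, 2394 and 774 bases, while for Hspa1a and Hspa1b the lengths were equal. The order of genes close in level, and which of them overlap, may therefore depend on the length used. Reads aligned to several places belong to no gene, so genes that share sequence with others may be set too low. Of the 50-base windows of their transcripts, 66.3% for Hspa1a, 62.3% for Hspa1b and 74.8% for Hspa8 also stand in transcripts of other genes. On this scale the WT 0 h mean was 493 ± 64.4 CPM/kb for Hspa8 (SD, n = 3) and 405 ± 28.1 CPM/kb for Hsp90ab1. Then came 82.3 ± 9.14 CPM/kb for Hsp90aa1, 74.2 ± 10.1 CPM/kb for Hspe1, 46.1 ± 11.5 CPM/kb for Dnajb1, 31.7 ± 4.58 CPM/kb for Hspd1 and 30.7 ± 6.47 CPM/kb for Dnaja1. Lowest were Hsph1 at 9.52 ± 2.51 CPM/kb, Hspa1b at 5.97 ± 6.57 CPM/kb and Hspa1a at 2.6 ± 2.37 CPM/kb. Neighbours in this order whose libraries overlapped were Hspa8 with Hsp90ab1, Hsp90aa1 with Hspe1, Hspd1 with Dnaja1, Hsph1 with Hspa1b, and Hspa1b with Hspa1a. The KO 0 h means followed the same order, from 392 ± 21.0 CPM/kb for Hspa8 to 0.628 ± 0.127 CPM/kb for Hspa1a. Together the 10 genes took 0.401% ± 0.0489 of gene reads in WT at 0 h (SD, n = 3) and 0.339% ± 0.0201 in KO. After 24 h the shares were 0.590% ± 0.0308 for WT and 0.529% ± 0.0246 for KO.

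**Figure D1:**
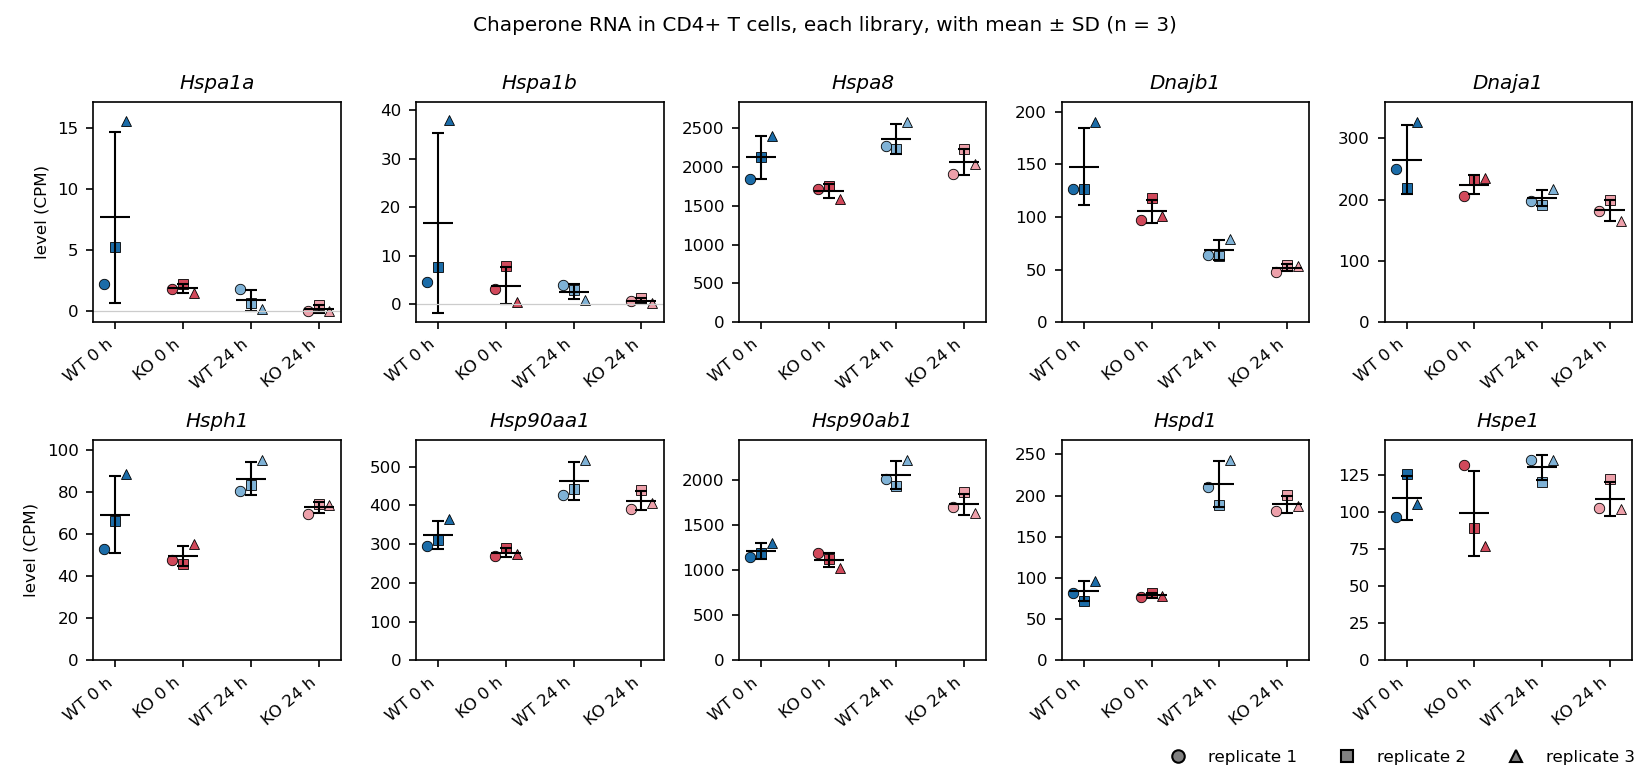
Level of each chaperone in CPM (vertical axes, which start at or below 0 and differ between panels) in the 12 libraries, by group. Points are libraries, with the shape giving the replicate number, and bars give the mean ± SD (n = 3). WT 0 h replicate 3 stands highest of the 0 h libraries in 9 of the 10 panels, and Dnajb1 is lower in every 24 h library than in every 0 h library while Hspd1 is higher.

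The inducible HSP70 genes were few in reads and uneven between the 0 h libraries. Hspa1a was 2.25, 5.26 and 15.6 CPM in the WT libraries at 0 h and 1.82, 2.26 and 1.51 CPM in the KO libraries. Hspa1b was 4.50, 7.76 and 37.9 CPM in the WT libraries at 0 h and 3.11, 7.91 and 0.565 CPM in the KO libraries. For both genes the third WT library was far above the rest, the groups overlapped, and the lowest WT library lay within the KO range. The reads behind these values were 13, 38 and 125 for Hspa1a in WT 0 h against 17, 14 and 8 in KO 0 h. The log2 fold change, KO over WT, was -2.06 ± 0.59 (SE) for Hspa1a (edgeR quasi-likelihood test, Benjamini-Hochberg adjusted over all genes tested, adjusted p = 0.170). For Hspa1b it was -2.12 ± 0.96 (edgeR, adjusted p = 0.636). Summed to 1 row, since 62.3% of the 50-base windows of the Hspa1b transcript also stand in Hspa1a transcripts, the pair gave -2.10 ± 0.87 (edgeR, adjusted p = 0.605). In each library 25.7% to 30.9% of the listed reads were in the entry for reads aligned to several places, which belongs to no gene. Reads that fit both genes may therefore be missing from the sum too, so the total of the pair and its split are uncertain. Exons of Hspa1a also overlap Gm20481 on the other strand by 564 bases, and no strand setting is given in the sources used here.

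Among the partners of HSP70, Dnajb1 and Hsph1 had the smallest adjusted p-values of the 10 genes at 0 h, and Dnaja1 did not. Dnajb1, the J-protein induced with Hspa1a, was 126, 127 and 190 CPM in the WT libraries at 0 h and 96.6, 118 and 101 CPM in the KO libraries. Every KO library lay below every WT library, and the fold change was -0.50 ± 0.13 on the log2 scale, or 70.9% of the WT level (edgeR, adjusted p = 0.0974). Hsph1, the HSP110 nucleotide exchange factor, was 52.7, 66.1 and 88.7 CPM in the WT libraries at 0 h and 47.8, 45.7 and 55.2 CPM in the KO libraries. The lowest WT library overlapped the KO libraries, and the fold change was -0.49 ± 0.13 (edgeR, adjusted p = 0.0999). Dnaja1, a more constitutive J-protein, was 250, 219 and 327 CPM in the WT libraries at 0 h and 207, 232 and 234 CPM in the KO libraries, with overlap between the groups. Its fold change was -0.24 ± 0.10 (edgeR, adjusted p = 0.531). Exons of Dnaja1 overlap Smu1 on the other strand by 608 bases, while Dnajb1 and Hsph1 overlap no annotated exon of another gene.

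Hspa8, the HSP90 genes and the mitochondrial pair had estimates from -0.33 to -0.09 between genotypes at 0 h, and none passed. Hspa8 was 1840, 2128 and 2394 CPM in the WT libraries at 0 h and 1717, 1754 and 1582 CPM in the KO libraries. The groups did not overlap, and the fold change was -0.33 ± 0.09 on the log2 scale, or 79.4% of the WT level (edgeR, adjusted p = 0.141). Hsp90aa1 was 296, 311 and 364 CPM in the WT libraries at 0 h and 269, 290 and 275 CPM in the KO libraries, again without overlap, with a fold change of -0.22 ± 0.09 (edgeR, adjusted p = 0.481). Hsp90ab1 was 1145, 1188 and 1307 CPM in the WT libraries at 0 h and 1191, 1124 and 1029 CPM in the KO libraries. These overlapped, and the fold change was -0.12 ± 0.09 (edgeR, adjusted p = 0.793). Of the mitochondrial pair, Hspd1 had a fold change of -0.09 ± 0.10 and Hspe1 of -0.13 ± 0.15 (edgeR, adjusted p = 0.892 and 0.901). Hspd1 ranged from 72.5 to 96.5 CPM and Hspe1 from 77.2 to 132 CPM over the 6 libraries at 0 h, with the genotypes mixed. Of the 50-base windows of Hspa8, Hsp90aa1, Hspd1 and Hspe1 transcripts, 74.8%, 58.5%, 44.8% and 44.8% also stand in transcripts of other genes, led by Gm15459, Gm12346, Hspd1-ps3 and AC117239.2, so these levels are uncertain too.

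In all, 0 of the 10 chaperones passed between genotypes at 0 h (edgeR, adjusted p below 0.05), where 0.346% of all genes tested passed. Their 10 estimates were all negative, with a median of -0.29 on the log2 scale against 0.00 over all genes tested. At an unadjusted p below 0.05 stood 6 of the 10 (Dnajb1, Hsph1, Hspa8, Hspa1a, Hsp90aa1 and Dnaja1), against 8% of all genes. Lower in every KO than in every WT library were 3 of the 10 (Dnajb1, Hspa8 and Hsp90aa1), against 6.37% of all genes. The 10 genes were measured in the same libraries, so these counts are not independent of each other. They are not independent of the choice of genes either, which was made with earlier results of these data known. The call depended on settings. With no filter on low counts, 4 passed in edgeR, where 59 of 15503 genes did: Dnajb1, Hspa1a, Hsph1 and Hspa8 (adjusted p = 0.000874, 0.00631, 0.0088 and 0.0297). With DESeq2, 0 passed.

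The third WT library stood above the others at 0 h. Replicate 3 of WT 0 h was the highest of the 6 libraries for 9 of the 10 chaperones, whereas it was highest for 13.5% of all genes tested. Hspa1a and Hspa1b summed to 53.6 CPM there, 4.11 times the next library, while the other 5 libraries at 0 h held 2.07 to 13.0 CPM. Dnajb1 stood 1.5 times, Hsph1 1.34 times, Dnaja1 1.31 times, Hsp90aa1 1.17 times, Hspa8 1.12 times and Hsp90ab1 1.1 times above the next library, and Hspe1 alone was below another one. Without this library, 9 of the 10 estimates stayed negative, 0 passed, and the median was -0.20 on the log2 scale. The Hspa1a fold change was then -1.02 (edgeR, adjusted p = 0.733) and that of Hspa1b -0.66 (edgeR, adjusted p = 0.820). Dnajb1 was -0.27, Hsph1 -0.27, Hspa8 -0.24, Hsp90aa1 -0.13 and Dnaja1 -0.06, and Hspd1 turned to 0.03. Without WT 0 h replicate 1, by contrast, 3 passed in edgeR, where 25 of 11192 genes did: Hsph1, Dnajb1 and Hspa1a (adjusted p = 0.00918, 0.0312 and 0.0405). Without WT 0 h replicate 2, where 33 of 11163 genes passed, Dnajb1 was among them (edgeR, adjusted p = 0.0169).

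**Figure D2:**
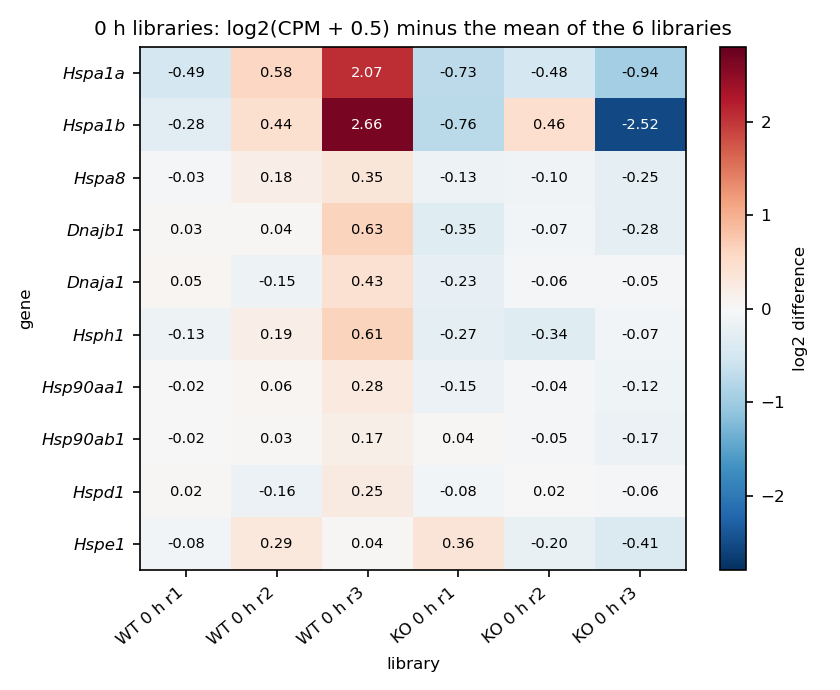
Each 0 h library against the others: log2(CPM + 0.5) of each chaperone minus its mean over the 6 libraries at 0 h, in colour and as numbers. WT 0 h replicate 3 is above the mean for all 10 genes, by 2.07 for Hspa1a and 2.66 for Hspa1b, and KO 0 h replicate 3 is lowest for Hspa1b at -2.52.

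**Figure D3:**
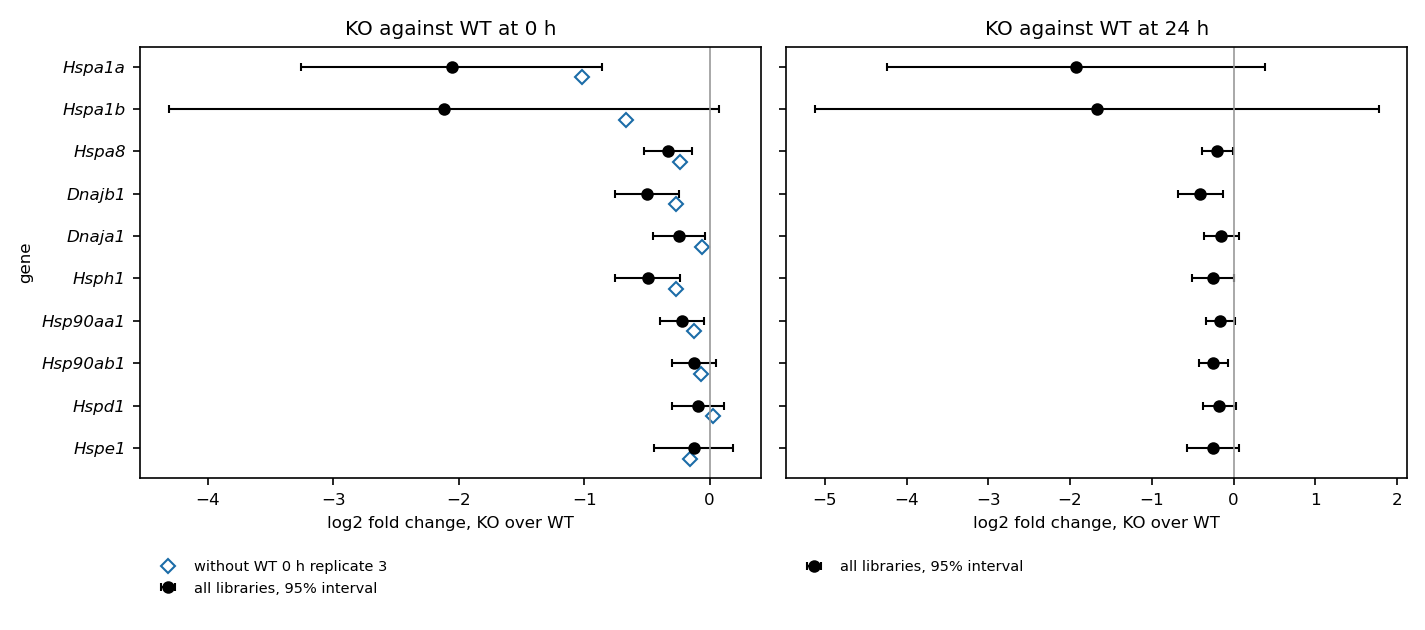
Log2 fold change of KO over WT (horizontal axes) for the 10 chaperones at 0 h and at 24 h, with 95% intervals of the edgeR fit. Every filled point lies left of 0. Open diamonds give the values without WT 0 h replicate 3, which lie nearer 0 for every gene except Hspe1. The Hspa1a value at 24 h rests on 3 reads in KO.

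The other chaperone groups and the immediate-early genes were looked at for the same libraries. Heat shock factors and their binding protein Hsbp1 had 0 of 3 tested genes passed at 0 h, small heat-shock proteins with Bag3 0 of 3, HSP70 relatives and J-proteins 0 of 25 and HSP90 cochaperones 0 of 14. Mitochondrial chaperones and proteases had 0 of 10, the TRiC chaperonin with prefoldin 0 of 13 and chaperones of the endoplasmic reticulum 0 of 14. Their median log2 fold changes ran from -0.14 for the HSP90 cochaperones to 0.11 for the small heat-shock proteins. Below 0 were 11 of 14 HSP90 cochaperones, 11 of 14 endoplasmic reticulum chaperones and 10 of 13 TRiC and prefoldin genes. So were 6 of 10 mitochondrial genes, 14 of 25 HSP70 relatives and J-proteins and 1 of 3 heat shock factors with Hsbp1. Of the small heat-shock proteins with Bag3, 0 of 3 were below 0. In summed CPM, every KO library lay below every WT library for the HSP90 cochaperones, endoplasmic reticulum and mitochondrial genes. The other chaperone lists overlapped. Hsf1 itself averaged 86.1 CPM in the KO and 86.3 CPM in the WT libraries, a fold change of 0.01 ± 0.11 (edgeR, adjusted p = 0.995). Bag3, a cochaperone that HSF1 induces, was 44.6 against 41.4 CPM, with 0.11 ± 0.14 (edgeR, adjusted p = 0.908). Other genes of these chaperone lists lay farther from 0. Their estimates ran from -0.61 ± 0.19 for Dnaja3 to 0.55 ± 0.17 for Stub1 (edgeR, adjusted p = 0.218 and 0.211).

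Of 18 tested immediate-early and cell isolation genes, 2 fell in KO at 0 h and 0 rose, against 0.346% of all genes that passed in either direction, with a list median of -0.26 on the log2 scale. Of the 18 estimates, 14 were below 0 and 4 above it: Fos (0.16), Fosb (0.10), Btg2 (0.03) and Klf6 (0.0035), none of which passed. Zfp36, whose protein promotes decay of cytokine mRNAs, was 1268, 1341 and 1231 CPM in the WT libraries at 0 h and 935, 851 and 990 CPM in the KO libraries, a fold change of -0.47 ± 0.08 (edgeR, adjusted p = 0.00136). Nfkbia, the inhibitor of NF-κB, was 400, 335 and 293 CPM in the WT libraries at 0 h and 287, 242 and 230 CPM in the KO libraries, a fold change of -0.43 ± 0.10 (edgeR, adjusted p = 0.0209). The 18 genes summed to 10490, 9421 and 10550 CPM in the WT libraries at 0 h and 9329, 8831 and 8831 CPM in the KO libraries. Of the markers of other cells, 2 passed between genotypes at 0 h. The CD8 T cell marker Cd8b1 was higher in KO by 0.85 on the log2 scale (edgeR, adjusted p = 0.0176), and the B cell marker Cd22 was at -2.49 (edgeR, adjusted p = 0.0118), while Cd79a and Cd79b, further B cell markers, did not pass. Cd22 averaged 7.41 CPM in WT and 1.32 CPM in KO at 0 h, and Cd79a 13.1 and 13.5 CPM. Cd8a and Cd8b1 summed to between 17.3 and 18.5 CPM in WT and between 30.8 and 35.8 CPM in KO at 0 h. Nearly all of this was Cd8b1, at means of 17.4 CPM in WT and 31.5 CPM in KO. Cd8a averaged 0.680 and 1.16 CPM and was removed by the filter on low counts. The 7 B cell markers summed to between 22.9 and 30.8 CPM in WT and between 17.0 and 28.8 CPM in KO at 0 h, which overlap. The 5 NK cell markers summed to between 16.3 and 21.5 CPM in WT and between 21.8 and 31.4 CPM in KO. Most of the NK sum was Klrb1c, at means of 16.5 CPM in WT and 21.8 CPM in KO. Ncr1 averaged 0.250 and 1.47 CPM, and Klra8 held no read. The part of other cells in the chaperone values was not tested.

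After 24 h of anti-CD3 the chaperone estimates were again below 0 in KO and none passed. Of the 10 genes 0 passed (edgeR, adjusted p below 0.05), where 0.273% of all genes tested did, and the median was -0.25 on the log2 scale against -0.01 over all genes. At an unadjusted p below 0.05 stood 3 of the 10, Dnajb1, Hsp90ab1 and Hspa8, against 7.06% of all genes, and DESeq2 called 0. Lower in every KO than in every WT library were Dnajb1, Hsp90ab1 and Hsph1, or 3 of 10, against 7.19% of all genes. Dnajb1 was 63.5, 62.7 and 79.2 CPM in the WT libraries at 24 h and 47.8, 54.2 and 53.5 CPM in the KO libraries, a fold change of -0.40 ± 0.14 (edgeR, adjusted p = 0.404). Hsp90ab1 was 2015, 1935 and 2228 CPM in the WT libraries at 24 h and 1700, 1864 and 1634 CPM in the KO libraries, a fold change of -0.25 ± 0.09 (edgeR, adjusted p = 0.431). Hsph1 was 80.4, 83.2 and 95.3 CPM in the WT libraries at 24 h and 69.7, 74.4 and 73.9 CPM in the KO libraries, a fold change of -0.25 ± 0.13 (edgeR, adjusted p = 0.721). Hspa8, Hsp90aa1, Hspd1, Hspe1 and Dnaja1 overlapped between genotypes, with fold changes from -0.25 for Hspe1 to -0.15 for Dnaja1. Hspa1a was down to 9, 6 and 1 reads in WT 24 h and 0, 3 and 0 reads in KO 24 h. Scaled by library size, the ratio of KO to WT was 0.257, with a 95% exact counting interval of 0.0480 to 0.898 that covers counting error only (edgeR, adjusted p = 0.799). The value rests on single libraries: the fitted log2 fold change was -1.93 with all libraries and -1.08 without WT 24 h replicate 1, and without KO 24 h replicate 2 no KO read was left and the fitted value went to -5.43, which is no bound. It passed with none of the 6 left out in turn (edgeR, adjusted p from 0.524 to 1). Hspa1b was 4.02, 2.99 and 0.837 CPM in the WT libraries at 24 h and 0.732, 1.22 and 0.249 CPM in the KO libraries (edgeR, adjusted p = 0.910). Of the 6 libraries at 24 h, WT replicate 3 was highest for 8 of the 10 chaperones, against 22.5% of all genes, and it was the lowest WT library for Hspa1a and Hspa1b. Without it the median of the 10 estimates was -0.18. Related lists also had 0 passed between genotypes at 24 h. Below 0 were 12 of 14 endoplasmic reticulum chaperones (median -0.12), 11 of 13 TRiC and prefoldin genes (-0.10) and 7 of 10 mitochondrial genes (-0.145). So were 17 of 25 HSP70 relatives and J-proteins (-0.05), 9 of 14 HSP90 cochaperones (-0.03) and 2 of 3 heat shock factors with Hsbp1 (-0.01). Of the small heat-shock proteins with Bag3, 0 of 3 were below 0 (0.18).

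Over the 24 h some of the chaperones rose and others fell. No library of cells cultured for 24 h without anti-CD3 was analysed here, so culture and stimulation cannot be told apart. In WT, 4 of 10 rose and 3 fell over 24 h (edgeR, adjusted p below 0.05), against 20.2% of all genes that rose and 20.5% that fell, 40.7% in all. In KO, 5 rose and 3 fell, against 19.4% and 21%, 40.4% in all. These shares are so large that the members' counts are read by direction and role only. Each genotype was compared with its own 0 h libraries. Other measures moved with time as well: over both genotypes the 5 NK cell markers summed to between 16.3 and 31.4 CPM at 0 h and between 0.402 and 2.87 CPM at 24 h. The 7 B cell markers went from between 17.0 and 30.8 CPM to between 4.21 and 10.7 CPM. The share of Rn45s, the ribosomal RNA precursor, was 12.5% to 17.5% of gene reads at 0 h and 7.95% to 9.55% at 24 h. Their part in the changes over time was not tested.

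Hspa1a and the J-protein genes Dnajb1 and Dnaja1 fell in both genotypes. Hspa1a went from a mean of 7.72 ± 7.03 CPM (SD, n = 3) to 0.879 ± 0.85 CPM in WT, a log2 fold change of -3.26 ± 0.66 (edgeR, adjusted p = 0.000148). Without WT 0 h replicate 3 it was -2.18 (edgeR, adjusted p = 0.0205), and without WT 24 h replicate 1 it was -4.11 (edgeR, adjusted p = 6.61e-05). In KO it went from 39 to 3 reads over the 3 libraries, a scaled ratio of 0.105 with a 95% exact counting interval of 0.0208 to 0.332 (edgeR, adjusted p = 0.0118). Without KO 24 h replicate 1 the KO call was lost (edgeR, adjusted p = 0.0667). Hspa1b did not pass in WT (-2.73 ± 1.01, edgeR, adjusted p = 0.0613) or in KO (-2.29 ± 1.43, edgeR, adjusted p = 0.247). In WT it passed in DESeq2 (adjusted p = 0.0293) and without WT 0 h replicate 1 (edgeR, adjusted p = 0.0335), and the summed pair passed there too (-2.88 ± 0.94, edgeR, adjusted p = 0.0374). Without WT 0 h replicate 3 the WT value of Hspa1b was -1.24 (edgeR, adjusted p = 0.129). Dnajb1 fell to 46.3% of its 0 h level in WT (-1.11 ± 0.13, edgeR, adjusted p = 1.1e-08) and to 49.3% in KO (-1.02 ± 0.14, edgeR, adjusted p = 1.78e-07). Every library at 24 h lay below every library at 0 h of the same genotype for Dnajb1 and for Dnaja1. Dnaja1 fell by 0.39 on the log2 scale in WT (edgeR, adjusted p = 0.00233) and by 0.30 in KO (edgeR, adjusted p = 0.0229). Without WT 0 h replicate 3 the WT fall of Dnaja1 did not pass (-0.19, edgeR, adjusted p = 0.131), and in KO it was lost without 4 of the 6 libraries in turn (edgeR, adjusted p from 0.0684 to 0.131).

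Hspd1 and both HSP90 genes rose in both genotypes. Hspd1 in WT was 82.1, 72.5 and 96.5 CPM before and 210, 188 and 243 CPM after stimulation. The KO values were 76.7, 81.8 and 77.6 CPM before and 181, 201 and 187 CPM after stimulation. The times did not overlap in either genotype, and the log2 fold change was 1.35 ± 0.10 in WT (edgeR, adjusted p = 2.24e-15) and 1.27 ± 0.10 in KO (edgeR, adjusted p = 2.97e-14). Hspe1, whose promoter adjoins that of Hspd1, had estimates above 0 but passed in neither (0.25 ± 0.15 and 0.13 ± 0.15, edgeR, adjusted p = 0.193 and 0.550). With 1 library left out, its KO value ran from 0.0036 to 0.42 and passed in 1 of 6 fits (edgeR, adjusted p = 0.00354). The WT value of Hspe1 then ran from 0.19 to 0.38 and passed in 0 of 6. The difference between Hspd1 and Hspe1 was not tested. Hsp90ab1 rose by 0.76 ± 0.09 in WT and by 0.64 ± 0.09 in KO (edgeR, adjusted p = 8.22e-10 and 7.02e-08). Hsp90aa1 rose by 0.51 ± 0.09 and 0.57 ± 0.09 (edgeR, adjusted p = 4.99e-06 and 9.06e-07). Both HSP90 genes were higher in every 24 h library than in every 0 h library of the same genotype.

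The calls of Hsph1 and Hspa8 were less settled, since Hsph1 passed in both genotypes with a WT call that depended on settings, and Hspa8 passed in KO only. Hsph1 rose by 0.31 ± 0.12 in WT (edgeR, adjusted p = 0.0413) and by 0.56 ± 0.13 in KO (edgeR, adjusted p = 0.000608). The WT times overlapped, because WT 0 h replicate 3, at 88.7 CPM, was above 2 of the 3 libraries at 24 h. The WT call was lost in DESeq2 (adjusted p = 0.0710) and without WT 0 h replicate 1, WT 0 h replicate 2, WT 24 h replicate 2 or WT 24 h replicate 3 (0.17, 0.29, 0.34 and 0.24), and the estimate was 0.56 without WT 0 h replicate 3. Hspa8 rose in KO by 0.29 ± 0.09 (edgeR, adjusted p = 0.0108) and did not pass in WT (0.15 ± 0.09, edgeR, adjusted p = 0.190). Without WT 0 h replicate 3 the WT value was 0.27 and passed (edgeR, adjusted p = 0.0262), and without KO 24 h replicate 2 the KO value was 0.23 and did not (edgeR, adjusted p = 0.0715).

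Whether the change over time differed between genotypes was tested with the interaction term, the log2 fold change over time in KO minus that in WT. Of the 10 chaperones 0 passed (edgeR, adjusted p below 0.05), where 0.00911% of all genes did, and adjusted p-values ran from 0.996 to 1. At an unadjusted p below 0.05 stood 0 of the 10, against 5.24% of all genes, and DESeq2 called 0. The largest of the well-measured estimates was 0.24 ± 0.18 for Hsph1, with a 95% interval of -0.12 to 0.61, followed by 0.14 ± 0.13 for Hspa8. Hspa1a had too few reads at 24 h for the term to be estimated usefully. Intervals this wide do not show that the genotypes changed alike.

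**Figure D4:**
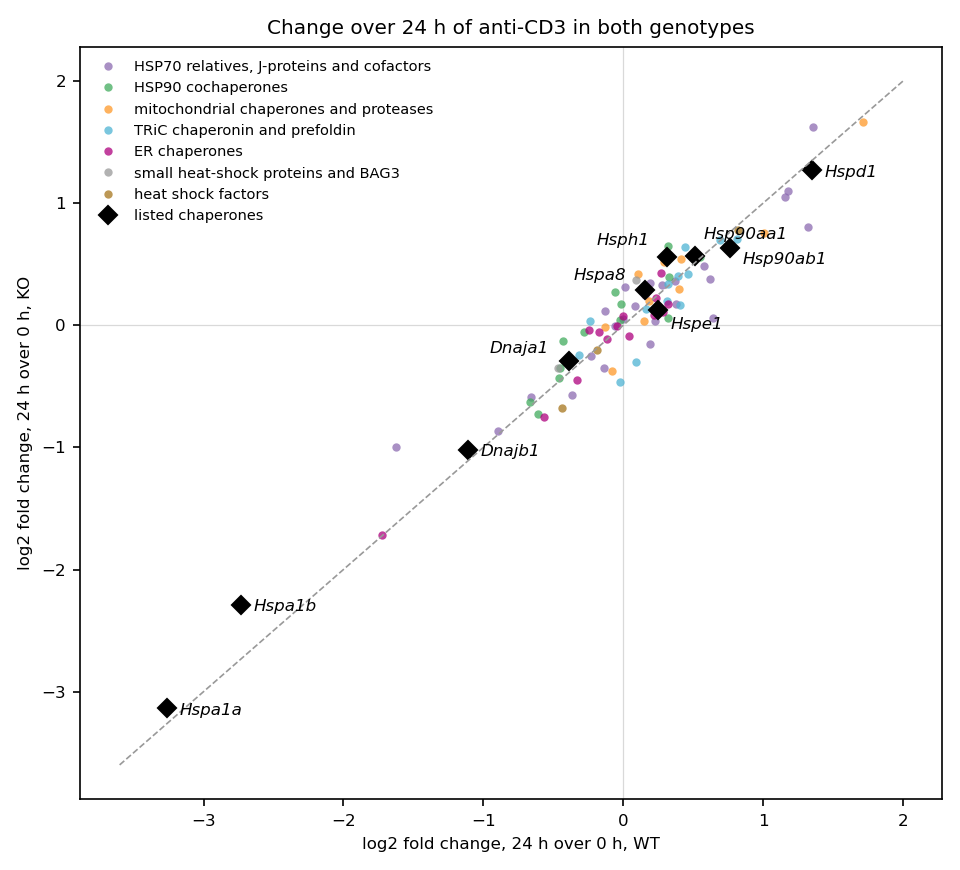
Log2 fold change from 0 h to 24 h of anti-CD3 in WT (horizontal axis) and in KO (vertical axis) for the 10 chaperones (black diamonds) and for members of related chaperone lists (coloured points); the dashed line marks equal change. Hspd1, Hsp90ab1 and Hsp90aa1 lie in the upper right and Dnajb1, Dnaja1, Hspa1a and Hspa1b in the lower left. The KO value of Hspa1a rests on 3 reads at 24 h.

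Related chaperone groups also held genes that changed over 24 h, to be read beside the 20.2% of all genes that rose and 20.5% that fell in WT, and the 19.4% and 21% in KO. Mitochondrial chaperones and proteases had 2 of 10 that rose in WT, the share of all genes, and 4 of 10 in KO, and 0 fell. Hspa9, the mitochondrial HSP70 that hands clients to HSP60, rose from 113 to 372 CPM in WT (1.72 ± 0.09, edgeR, adjusted p = 1.89e-20) and from 101 to 321 CPM in KO (1.67 ± 0.09, edgeR, adjusted p = 8.16e-20). Lonp1, the matrix protease, rose by 1.00 ± 0.11 in WT and 0.76 ± 0.11 in KO (edgeR, adjusted p = 2.26e-10 and 2.41e-07). Of 13 tested genes of the TRiC chaperonin and prefoldin, 7 rose in WT and 6 in KO and 0 fell, with Tcp1 at 0.82 ± 0.09 and 0.70 ± 0.09. TRiC folds actin and tubulin in the cytosol. HSP70 relatives and J-proteins split, with 9 up and 3 down of 25 in WT and 7 up and 2 down in KO. In that list Dnajc7, a cochaperone that binds HSP70 and HSP90, rose by 1.36 ± 0.09 and 1.63 ± 0.09 (edgeR, adjusted p = 9.36e-17 and 2.58e-19), and Dnajb4, a further J-protein, fell by 1.63 ± 0.16 and 0.99 ± 0.17 (edgeR, adjusted p = 1.41e-11 and 4.39e-06).

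The remaining lists held genes of both directions. Of all genes 20.2% rose and 20.5% fell in WT, and 19.4% and 21% in KO. The counts of the HSP90 cochaperones that rose in WT lay near these shares. So did those of the endoplasmic reticulum genes in WT and of those that fell in KO. Bag3 fell by 1.08 ± 0.15 in WT and by 1.02 ± 0.15 in KO (edgeR, adjusted p = 6.9e-08 and 3.51e-07). Of 14 HSP90 cochaperones, 3 rose and 5 fell in WT and 4 rose and 4 fell in KO; Cdc37, which brings kinases to HSP90, fell by 0.61 ± 0.10 and 0.73 ± 0.10. In the endoplasmic reticulum, 3 of 14 rose and 3 fell in WT and 1 rose and 3 fell in KO, with Dnajb9, a J-protein of the unfolded protein response, down by 1.72 ± 0.17 and 1.72 ± 0.18 (edgeR, adjusted p = 8.47e-07 and 1.23e-06). Among the heat shock factors, Hsf2 rose by 0.82 ± 0.25 in WT and 0.78 ± 0.27 in KO (edgeR, adjusted p = 0.00791 and 0.0165), and Hsbp1, which binds and restrains HSF1, fell by 0.44 ± 0.12 and 0.67 ± 0.12. Of the 18 immediate-early genes, 13 fell and 5 rose in each genotype. Fos fell from 330 to 8.51 CPM in WT and from 369 to 9.57 CPM in KO (-5.26 ± 0.13 and -5.29 ± 0.13, edgeR, adjusted p = 3.65e-33 and 6.27e-33).

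Likeness was measured against the mean log2 CPM of Hspa1a, Hspa1b, Dnajb1 and Hsph1, which was 5.83 in WT 0 h replicate 3 and 2.36 to 4.63 in the other 11 libraries. Over the 12 libraries, the genes closest in Pearson's r were Rp9 (0.923), Sertad1 (0.885), Kmt2e (0.881), Msl1 (0.871) and Cuedc1 (0.871). With the group means taken off, they were Arfip1 (0.927), Supt6 (0.910), Ccdc11 (0.900), Angptl4 (0.897) and Foxk1 (0.889), none of which is in the first list. Rp9 was then at rank 7 (0.879), just outside the 5 named. These are the highest values picked from 10981 genes over 12 libraries that share 4 groups and differ in depth, so they describe the libraries and carry no test.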

How the data were processed

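The deposited values were counts of reads per gene symbol, 1 table per library, with no normalization by the authors recorded. STAR 2.6.0c, DESeq and hg19 are named in the submitters' processing notes. Because hg19 is a human build and the symbols are mouse ones, it is uncertain which genome was used, and the coordinates printed are those of the RefSeq promoter table (GRCm38.p6), not of the counts. How reads were counted, with which annotation and strand, is not given in the sources used here. Total RNA, 100 ng, went into libraries with a NuGen Ovation Mouse kit and probe-based removal of ribosomal RNA, per the labels' protocols, and the cells were enriched by removing others, to a stated purity above 95%.

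The 5 closing entries that name no gene were kept out of totals and tests. They held 22.8% to 35.4% of listed reads as no feature, 0.412% to 0.576% as ambiguous and 25.7% to 30.9% as aligned to several places. Within genes, the ribosomal RNA precursor Rn45s took 7.95% to 17.5% of reads. Groups and replicate numbers came from the sample titles. Counts were scaled with TMM factors, filtered with filterByExpr (minimum count 10, minimum total 15) and tested in 1 fit of the 4 groups without covariates by the quasi-likelihood test of edgeR 4.0.16 in R 4.3.3, robust, with Benjamini-Hochberg adjustment over the 10981 genes kept. Adjusted p below 0.05 was the threshold. The common biological coefficient of variation was 0.115. Levels are CPM, and fold changes are log2 with the fit's standard error (SE). The 5 comparisons were KO against WT at each time, 24 h against 0 h in each genotype, and their interaction. Intervals of counts cover counting error only. No pair of libraries in a group agreed within sampling noise (chi-square per gene 3.23 to 15.5).

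All 10 members were tested in each comparison, and all are named in each one except the interaction. Of each related list, up to 3 that passed could be named, by size of change, or up to 2 with the highest level where none passed. Of the immediate-early list, the 4 genes with estimates above 0 between genotypes at 0 h were named besides. So were the genes with the lowest and the highest estimate there over the related chaperone lists. The members and lists were chosen with earlier results of these data known. The listed genes Pfdn6 and Adgre1 had no row. Exon lengths, overlaps and shared sequence came from GENCODE vM21. Alternatives were DESeq2 1.42.0, RLE factors, no filter, Rn45s left out, Hspa1a and Hspa1b summed, the replicate number as a block, the compared groups alone, and each library left out in turn. The fit was checked on simulated counts.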

Additional observations from a re-analysis of the deposited data

How the results depend on the processing

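Between genotypes at 0 h, the number of chaperones that passed was 0 in the reported fit and with DESeq2, RLE factors, Rn45s left out, the Hspa1 pair summed and the compared groups alone. It was 4 with no filter on low counts and 1 with the replicate block (Dnajb1, adjusted p = 0.0498), and 0 to 3 with 1 library left out, 3 without WT 0 h replicate 1 and 1 without WT 0 h replicate 2. The counts of members ran from 0 to 0 between genotypes at 24 h, 6 to 7 over time in WT, 6 to 9 over time in KO and 0 to 0 for the interaction with 1 library left out. With Rn45s left out of the total, the members' share of reads at 0 h was 0.468% (WT) and 0.397% (KO) and at 24 h 0.650% (WT) and 0.575% (KO), higher than reported in each group by construction.

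Signs changed in values near 0. With 1 library left out, the 0 h genotype value ran from -0.193 to 0.0277 for Hspd1 and from -0.40 to 0.02 for Hspe1. The interaction ran from -0.0784 to 0.232 for Dnaja1, -0.13 to 0.21 for Dnajb1, -0.0291 to 0.145 for Hsp90aa1, -3.37 to 0.97 for Hspa1a, -1.03 to 1.37 for Hspa1b, -0.192 to 0.0291 for Hspd1 and -0.26 to 0.16 for Hspe1. For Hspa1a the interaction was -0.11 in DESeq2 and -0.0896 with the replicate block, against 0.13 in the reported fit. The cause of each was not tested.

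Over all genes, 38 passed between genotypes at 0 h, against 59 with no filter, 24 in the fit of the compared groups alone and 17 to 33 with 1 library left out. At 24 h 30 passed, against 45 in DESeq2 and 14 to 30 with 1 library left out. The interaction gave 1 gene, 3 with no filter and 0 with the replicate block, RLE factors or Rn45s left out. Same-numbered libraries of different groups deviated with correlations of -0.0884 to 0.0934, 0 of 18 above 0.1. The numbers were therefore not taken to pair the libraries, and the block changed no other count of members. Between the times in WT these correlations were 0.0139, 0.0763 and 0.0934, against -0.0866 to 0.0158 for different numbers. In KO they were 0.0477, -0.0022 and 0.0337, against -0.058 to 0.0247. Whether same-numbered libraries share a source was not tested. Hspa1a and Hspa1b were removed by the filter when the 24 h groups, or the KO groups, were fitted alone. Hspa1a and Hspa1b, at 0 to 26 reads per library at 24 h, are limited by depth.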
